A study of Mus musculus with 4 samples.

Results

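The 10 genes described here, S100a8, S100a9, Lcn2, Ngp, Camp, Ltf, Mcemp1, Csf3r, Ly6c2 and Plac8, are genes of neutrophil granules and cytosol and of inflammatory monocytes, and they were followed in cultured mouse Kupffer cells given maresin 1. They were taken as a fixed list, and every non-control array probe whose RefSeq accession named one of them was used: 11 probes for 10 genes, of 56605 probes and 45616 genes or transcript identifiers on the array. Of the 10 genes, 9 entered the test, which covered 24055 genes in all and asked for a signal well above background on each array of vehicle or of maresin 1. Ngp did not.

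Kupffer cells are the macrophages that live in the liver's blood channels, and here they came as primary cells from male C57BL/6 mice aged 8 weeks. Livers were digested with collagenase and the macrophage layer was taken from a Percoll step, a density separation that does not select by surface marker, so other liver leukocytes can be carried along. One group of 2 arrays held RNA from cultures kept for 24 h in RPMI with 0.1% serum and 200 nM maresin 1, and the other group of 2 held RNA from cultures given ethanol, the vehicle. Whether replicate arrays stand for separate cultures or mice is not stated, so p-values measure only how far these arrays lie apart, which could be technical. All arrays were on 1 slide in group order, so slide position and treatment cannot be told apart.

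Neutrophils carry antimicrobial proteins in granules that are made in a fixed order during their growth in the bone marrow. Azurophil granules, the earliest, hold proteases and myeloperoxidase, and the later specific granules hold lactoferrin (Ltf), the siderophore-binding lipocalin 2 (Lcn2), cathelicidin (Camp) and the neutrophilic granule protein (Ngp). The calcium-binding proteins S100A8 and S100A9 pair to form calprotectin, which fills the cytosol of neutrophils and young monocytes and withholds zinc and manganese from microbes. Mature neutrophils keep much of their granule protein long after its transcript has gone, and activated macrophages can make Lcn2, S100a8 and S100a9 themselves. Maresin 1, which macrophages derive from the omega-3 fatty acid DHA, is known for limiting neutrophil entry and aiding the resolution of inflammation.

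Mcemp1 was the gene that changed. It was lower with maresin 1, at 55.2% of the vehicle level, while no other gene of the list passed the test in either direction. Of the 9 tested genes, 1 was called lower and 0 higher by limma's moderated test at an adjusted p under 0.05 (at an unadjusted p under that value the counts were also 1 and 0). Over all genes tested, 12.8% were called lower and 11.2% higher, and at the unadjusted p 22.1% were lower and 18.6% higher. The median log2 difference of the 9 genes was -0.04, against -0.02 over all genes. Differences are maresin 1 minus vehicle on the log2 scale with the SE of the fit, and levels are log2 of the processed signal relative to the array's 75th percentile, so that 0 is the signal of that percentile. Levels of different genes come from different probes, so no difference in level between genes is read from them. The gene with the highest signal in a marker list is named only as the one that weighs most in the list's summed signal, and sums are compared between arrays alone.

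**Figure D1:**
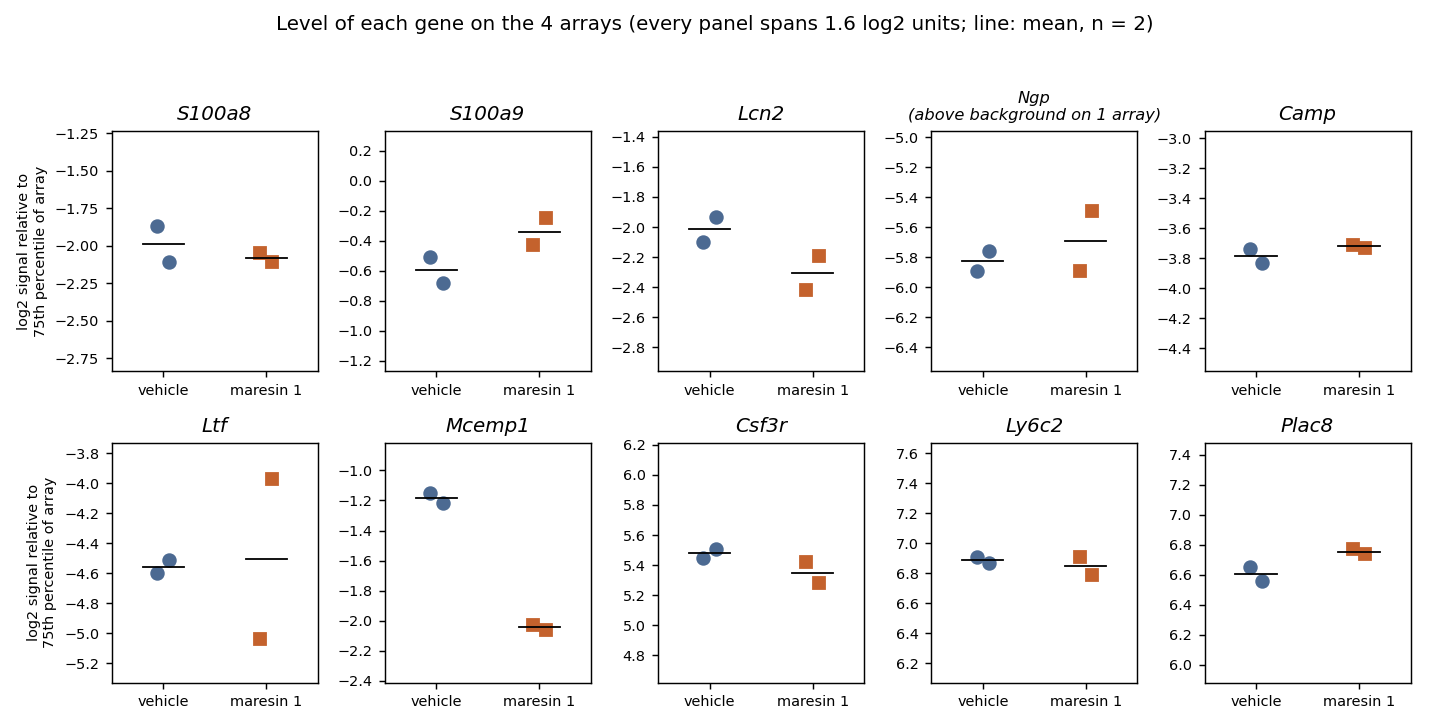
Log2 signal of each of the 10 genes relative to the 75th percentile of its array (vertical axis) on the 2 vehicle arrays (circles) and the 2 maresin 1 arrays (squares), with the group mean as a line and the same 1.6-unit span in each panel. Mcemp1 separates the groups by 0.86, Ltf spreads from -5.04 to -3.97 within the maresin 1 group, and Ngp was well above background on 1 array.

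Arrays were alike in depth and detection. Their 75th percentile of processed signal lay between 847 and 988, and between 54.4% and 55.6% of probes were well above background. The lowest signal counted as well above background lay between -5.75 and -5.54 on the scale of levels. The Kupffer cell label was checked against 9 markers, and all 9 (Clec4f, Vsig4, Timd4, Cd5l, Marco, Adgre1, Csf1r, C1qa and C1qb) were well above background on every array, and their summed signal was 973 to 1010 times the 75th percentile on the vehicle arrays and 926 to 935 times on the maresin 1 arrays. Of the 9, 1 rose, 1 fell and 7 did not pass. Adgre1, the gene of the macrophage antigen F4/80, fell by 0.67 (SE 0.06, adjusted p = 0.00634), also whichever array was left out. Csf1r, the receptor for the macrophage growth factor CSF1, rose by 0.29 ± 0.07 (adjusted p = 0.0471), a call that needed all 4 arrays (highest adjusted p 0.173 with 1 left out). Marco, the brightest, had a difference of -0.19 ± 0.06 (adjusted p = 0.0905). Adgre1 and Csf1r were named after their values were seen.

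The genes of calprotectin are neighbours on chromosome 3, with no other protein-coding gene between them in the RefSeq annotation. S100a8 had levels of -1.87 and -2.11 with vehicle and of -2.05 and -2.11 with maresin 1. The 2 groups overlapped, and the difference was -0.09 ± 0.10 (adjusted p = 0.535, 95% interval -0.37 to 0.18). S100a9 had levels of -0.51 and -0.68 with vehicle and -0.43 and -0.25 with maresin 1. Both maresin 1 arrays were above both vehicle arrays, but by little, and the difference of 0.26 ± 0.10 did not pass (adjusted p = 0.138, interval -0.02 to 0.53). S100a9 passed with a model that lets the variance follow the signal (adjusted p = 0.0214) and with normexp background correction and quantile normalization (adjusted p = 0.0482). In processed signal, S100a8 read 263 and 228 with vehicle and 228 and 196 with maresin 1, and S100a9 read 676 and 615 against 703 and 712. A rise of S100a9 of more than 1.45-fold and a rise of S100a8 of more than 1.13-fold lie outside these intervals.

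Other S100 genes, which encode small calcium-binding proteins with various roles inside and outside cells, were tested beside them. Of 13 listed, 7 were tested, of which 1 rose, 1 fell and 5 did not pass, with a median of 0.04. S100a4, a gene of motile cells that is also on the inflammatory monocyte list, fell by 0.57 on the log2 scale (SE 0.06, adjusted p = 0.00775). S100a11 rose by 0.35 ± 0.08 (adjusted p = 0.0485), a call that did not survive leaving out any single array (adjusted p up to 0.159) and with quantile normalization (0.054). S100a16 (0.20 ± 0.06) and S100a6 (-0.16 ± 0.06) did not pass.

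Of the 4 specific granule genes, 3 were tested and none passed. Camp, Ngp and Ltf lie in that order on chromosome 9, with 8 protein-coding genes between Camp and Ngp and 20 between Ngp and Ltf. Ngp, whose product belongs to the same protein family as cathelicidin, had levels of -5.89 and -5.76 with vehicle and -5.89 and -5.49 with maresin 1. It was well above background on maresin 1 replicate 2 alone, so no fold is given. Tested without a filter on dim probes, its difference was 0.13 ± 0.17 (adjusted p = 0.61). Camp, the gene of the antimicrobial peptide cathelicidin, was well above background on all 4 arrays, at -3.74 and -3.83 with vehicle and -3.71 and -3.73 with maresin 1. Its difference of 0.06 ± 0.06 (adjusted p = 0.492) had an interval of -0.11 to 0.23, so a change of more than 1.18-fold upward lies outside it.

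Ltf, which encodes the iron-binding protein lactoferrin, was the least precise of the tested genes. It had levels of -4.60 and -4.51 with vehicle and -5.04 and -3.97 with maresin 1. The maresin 1 arrays lay on either side of both vehicle arrays, and the difference of 0.05 ± 0.37 (adjusted p = 0.935) had an interval of -0.96 to 1.05, so a change of up to 2.07-fold upward lies inside it. Leaving out maresin 1 replicate 1 gave 0.58 and a call (adjusted p = 0.046), and leaving out maresin 1 replicate 2 gave -0.49 without one (adjusted p = 0.0649), so a single array set both size and direction.

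Lcn2 was lower on both probes without passing. Lipocalin 2 binds bacterial siderophores and so keeps iron from bacteria. At the brighter probe its levels were -2.10 and -1.93 with vehicle and -2.42 and -2.19 with maresin 1, and at the dimmer probe -4.11 and -4.09 against -4.43 and -4.29. Both maresin 1 arrays lay below both vehicle arrays at each probe. The differences were -0.29 ± 0.11 (adjusted p = 0.136, interval -0.60 to 0.02) at the brighter probe and -0.26 ± 0.07 at the dimmer (adjusted p = 0.0681 over all probes). Lcn2 passed with no scaling between arrays (-0.41, adjusted p = 0.0454), with normexp and quantile normalization (-0.25, 0.0439) and with a variance trend (0.0446). Leaving out 1 array moved it between -0.41 and -0.17 with no call.

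Of 9 transcription factors of granulocytes and monocytes, all tested, 5 rose, 1 fell and 3 did not pass, with a median of 0.58. Cebpe, which encodes C/EBP epsilon, a factor needed for specific granules in neutrophils, had levels of -2.40 and -2.44 with vehicle and -0.89 and -0.91 with maresin 1. Its 2 groups were far apart, and it rose by 1.52 ± 0.06 (adjusted p = 0.0017). Klf4, a monocyte factor, rose by 1.20 ± 0.10 and Cebpd, a factor of acute inflammation, by 1.02 ± 0.09. Irf8, needed for monocytes, rose by 0.58 ± 0.07. Gfi1, a repressor needed for neutrophil growth and named after its value was seen, rose by 0.66 ± 0.08 (adjusted p = 0.0124). The calls of Cebpe, Klf4 and Cebpd held whichever array was left out, whereas that of Gfi1 needed both vehicle arrays (highest adjusted p 0.0605 with 1 left out), that of Irf8 both vehicle arrays and maresin 1 replicate 2 (highest 0.0600), and that of Runx1, the factor that fell, all 4 arrays (highest 0.100). Spi1, which encodes PU.1, had a difference of 0.12 ± 0.07 (adjusted p = 0.297).

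The promoters of the 3 specific granule genes that hold C/EBP-type letters are shown, beside that of Mcemp1, the gene that fell. Camp, the remaining specific granule gene, held 0 matches and is not shown, so the printed contrast with Mcemp1 follows from this choice. Each promoter shown is the RefSeq sequence of GRCm38.p6 for the 250 bases before the gene's start, on the gene's strand, in lower case, with matches to TTNNGNAA or its reverse complement TTNCNNAA in capitals. Ngp is at chr9:110419558-110419807 on the plus strand, Ltf at chr9:111019042-111019291 on the plus strand, Lcn2 at chr2:32387740-32387989 on the minus strand and Mcemp1 at chr8:3665512-3665761 on the plus strand.
Ngp: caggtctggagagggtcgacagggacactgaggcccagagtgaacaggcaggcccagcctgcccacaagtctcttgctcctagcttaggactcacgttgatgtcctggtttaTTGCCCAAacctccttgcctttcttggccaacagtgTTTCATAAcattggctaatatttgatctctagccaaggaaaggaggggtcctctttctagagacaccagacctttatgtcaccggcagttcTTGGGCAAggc
Ltf: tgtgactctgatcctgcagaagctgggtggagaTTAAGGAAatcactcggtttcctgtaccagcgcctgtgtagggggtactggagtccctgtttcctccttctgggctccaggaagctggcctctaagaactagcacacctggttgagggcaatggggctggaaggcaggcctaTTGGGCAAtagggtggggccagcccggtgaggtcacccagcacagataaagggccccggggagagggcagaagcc
Lcn2: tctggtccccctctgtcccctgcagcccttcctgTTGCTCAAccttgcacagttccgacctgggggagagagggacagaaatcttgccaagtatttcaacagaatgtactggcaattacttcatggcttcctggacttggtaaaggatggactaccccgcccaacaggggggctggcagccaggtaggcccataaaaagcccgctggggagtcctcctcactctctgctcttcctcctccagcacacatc
Mcemp1: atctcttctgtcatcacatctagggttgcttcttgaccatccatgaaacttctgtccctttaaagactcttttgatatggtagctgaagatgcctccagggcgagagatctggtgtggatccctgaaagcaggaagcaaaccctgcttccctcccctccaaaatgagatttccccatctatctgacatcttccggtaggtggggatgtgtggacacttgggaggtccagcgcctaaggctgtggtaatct

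In windows of 300 bases (250 before and 50 after the start), Ngp held 3 C/EBP-type matches, Ltf and S100a9 held 2, Lcn2 and S100a8 held 1, and Camp, Csf3r and Mcemp1 held 0. Plac8 (1 in each of its 2 windows) and Ly6c2 (2 in each of its 2) held matches as well. In all, 7 of 10 genes had at least 1, and 40.7% of all 32851 promoter windows did. TTGGGCAA stood 11 bases before the start of Ngp and 75 bases before that of Ltf. The PU.1-type letters GAGGAAG (or CTTCCTC) were in the windows of 4 of the 10 genes, Lcn2, S100a8, Csf3r and Ly6c2, and in 13.6% of all windows, with no overlap between the matches of both motifs in these genes. The shares of 40.7% and 13.6% are per window, whereas the 10 genes were counted per gene, so the 2 kinds of count are not directly comparable. Whether the matches bear on the values of these genes was not tested. A match is a description of letters, and binding was not measured.

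Mcemp1 encodes a membrane protein of mast cells, monocytes and neutrophils. Its levels were -1.15 and -1.22 with vehicle and -2.03 and -2.06 with maresin 1, or 432 and 423 against 232 and 202 in processed signal. The gap between the groups was wide beside the spread within them, and Mcemp1 fell by 0.86 on the log2 scale (SE 0.06, n = 2 arrays per group, adjusted p = 0.00431, interval -1.02 to -0.69). The call held under all 14 alternatives run, with differences from -0.98 to -0.63 and adjusted p up to 0.0344. In RNA from a whole culture, fewer cells that express a gene and less of its RNA per cell cannot be told apart. Of the genes with a RefSeq symbol, Thy1 (-0.85), Stab1 (-0.88) and Capn3 (-0.86) were nearest to it over the 4 arrays, at Euclidean distances of 0.0358, 0.0380 and 0.0432 log2 units from values centred on the vehicle mean.

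**Figure D2:**
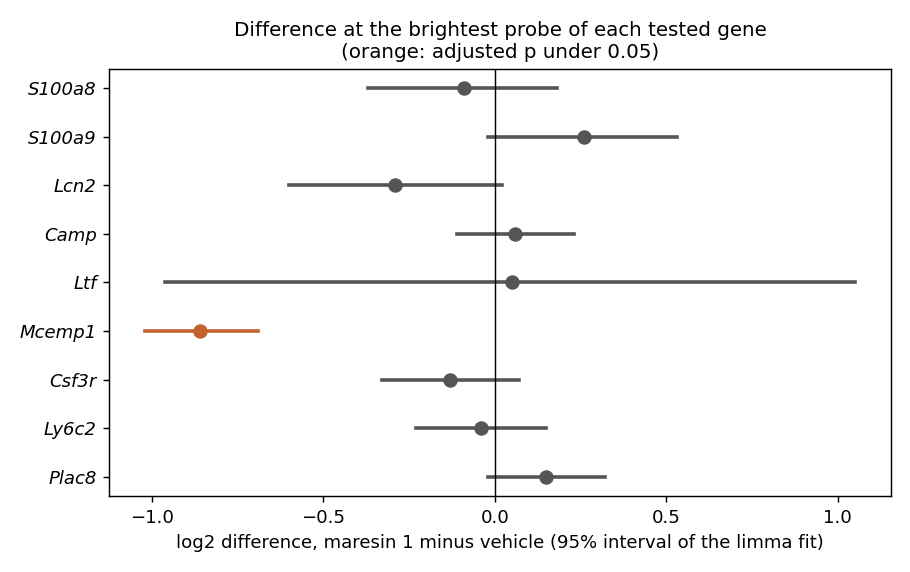
Log2 difference, maresin 1 minus vehicle (horizontal axis), of each tested gene at its brightest probe, with the 95% interval of the limma fit as a bar (n = 2 arrays per group). The interval of Mcemp1, -1.02 to -0.69, lies below 0, that of Ltf is the widest, and the other intervals include 0.

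Mast cells are known to express Mcemp1. Among 6 markers of eosinophils, basophils and mast cells, 3 entered the test. Ms4a2, a chain of the IgE receptor, and Epx, eosinophil peroxidase, were not well above background on any array. Siglecf, an eosinophil and macrophage lectin gene, was the brightest and rose by 0.70 ± 0.07 (adjusted p = 0.00872), a call lost without maresin 1 replicate 2 (0.0513). Cpa3, a mast cell protease gene, had a difference of 1.04 ± 0.30 (adjusted p = 0.0758). It was well above background on 1 of the 2 vehicle arrays. Over the 12 alternatives in which it was tested, its difference lay between 0.45 and 1.36, and it was called higher in 3. With 1 array left out its difference lay between 0.71 and 1.36. The list's summed signal was 0.171 to 0.214 times the 75th percentile with vehicle and 0.251 to 0.271 times with maresin 1.

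The receptor gene and the monocyte genes of the list did not pass. Csf3r, the receptor for granulocyte colony-stimulating factor, had levels of 5.45 and 5.51 with vehicle and 5.42 and 5.28 with maresin 1, with a difference of -0.13 ± 0.07 (adjusted p = 0.265, interval -0.33 to 0.07). Both maresin 1 arrays were lower, but 1 of them by only a small step. With normexp and quantile normalization Csf3r was called lower at -0.30 (adjusted p = 0.0109). Ly6c2, a gene of the Ly-6C surface antigen of inflammatory monocytes, had levels of 6.91 and 6.87 with vehicle and 6.91 and 6.79 with maresin 1, and the overlapping groups differed by -0.04 ± 0.07 (adjusted p = 0.69, interval -0.23 to 0.15). Plac8, a small cysteine-rich protein gene of monocytes, granulocytes and plasmacytoid dendritic cells, had levels of 6.65 and 6.56 against 6.77 and 6.74. Its difference of 0.15 ± 0.06 (adjusted p = 0.158, interval -0.02 to 0.32) passed with a variance trend (adjusted p = 0.0306). Increases of more than 1.11-fold for Ly6c2 and 1.25-fold for Plac8, and a decrease of Csf3r to less than 0.797 of the vehicle level, lie outside the intervals.

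Ly6c2 has a close copy beside it on chromosome 15, and the files do not show whether a probe for it also takes up transcripts of the other. That neighbour, Ly6c1, had a difference of -0.07 ± 0.08 (adjusted p = 0.538). Of 10 other Ly6 genes, 7 were tested, 1 rose and 6 did not pass, with a median of -0.07. Ly6d, a gene of early B cells and plasmacytoid dendritic cells, rose by 0.87 ± 0.06 (adjusted p = 0.00375). Ly6e (-0.23 ± 0.09), Ly6k (0.28 ± 0.11) and Ly6i (-0.27 ± 0.12) did not pass, and Ly6g, the standard neutrophil surface marker, was not matched to a probe here.

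In 6 of the 9 tested genes the 2 groups did not overlap. Lcn2, Mcemp1 and Csf3r were lower on both maresin 1 arrays (3 of 9), and S100a9, Camp and Plac8 were higher on both (3 of 9). Over all genes tested, 36.8% had non-overlapping groups with maresin 1 lower and 32.7% with maresin 1 higher, so these shares are close to the background. With 2 arrays against 2, the smallest p an exact permutation test can give is 0.333, and none was used.

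**Figure D3:**
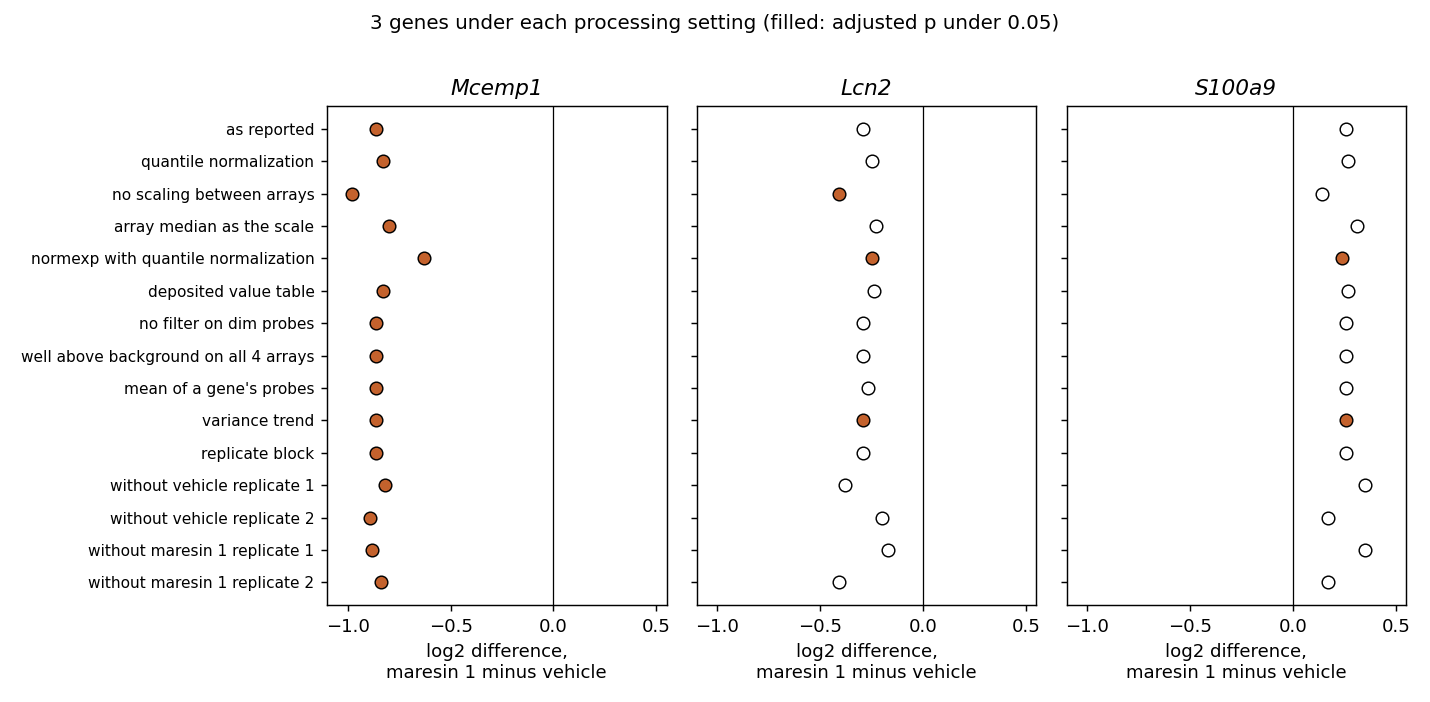
Log2 difference, maresin 1 minus vehicle (horizontal axes), of Mcemp1, Lcn2 and S100a9 as reported and under 14 other settings (rows), filled where the adjusted p was under 0.05. Mcemp1 is filled in every row, Lcn2 in 3 rows and S100a9 in 2, and no point crosses 0.

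Of 6 azurophil granule genes, 3 were tested and none rose or fell, with a median of 0.23. Elane, the gene of neutrophil elastase, had levels of -0.49 and -0.23 with vehicle and -0.47 and -0.53 with maresin 1 (difference -0.14 ± 0.10, adjusted p = 0.373), and was called lower with normexp and quantile normalization (-0.22, adjusted p = 0.0192). Mpo, the gene of myeloperoxidase, had a difference of 0.23 ± 0.22 (adjusted p = 0.493) and Ctsg, the gene of cathepsin G, of 0.24 ± 0.26 (adjusted p = 0.526). Their signs, and with them the median, rested on single arrays: with 1 array left out Mpo lay between -0.07 (without maresin 1 replicate 1) and 0.52, and Ctsg between -0.11 (without vehicle replicate 1) and 0.59. Prtn3, Bpi and Ms4a3 were not well above background on any array. At an unadjusted p under 0.05, 0 of the 3 tested genes passed, against 22.1% of all genes lower and 18.6% higher.

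Of 11 other genes of specific and gelatinase granules, 8 were tested, of which 4 fell, 0 rose and 4 did not pass, with a median of -0.49 against -0.02 over all genes. Mmp8, the gene of neutrophil collagenase, had levels of -1.67 and -1.78 with vehicle and -3.19 and -3.32 with maresin 1. The groups were well apart, and it fell by 1.53 on the log2 scale (SE 0.08, adjusted p = 0.00298). Itgam, the CD11b integrin chain, fell by 0.81 (SE 0.09), Cybb, the membrane subunit of the phagocyte oxidase, by 0.67 (SE 0.07) and Hp, haptoglobin, by 0.49 (SE 0.08). Macrophages are known to express Itgam and Cybb as well. The call of Hp needed vehicle replicate 1 and both maresin 1 arrays (highest adjusted p 0.0929 with 1 left out). With no filter on dim probes, Hp and Itgam were not called (0.0594 and 0.0525). With no scaling between arrays, which moved the median of all genes to -0.14 and the number of genes called lower from 3069 to 3940, 7 of the 8 were called lower. Cd177, a neutrophil surface protein kept in specific granules, and Fcnb were not well above background on any array.

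**Figure D4:**
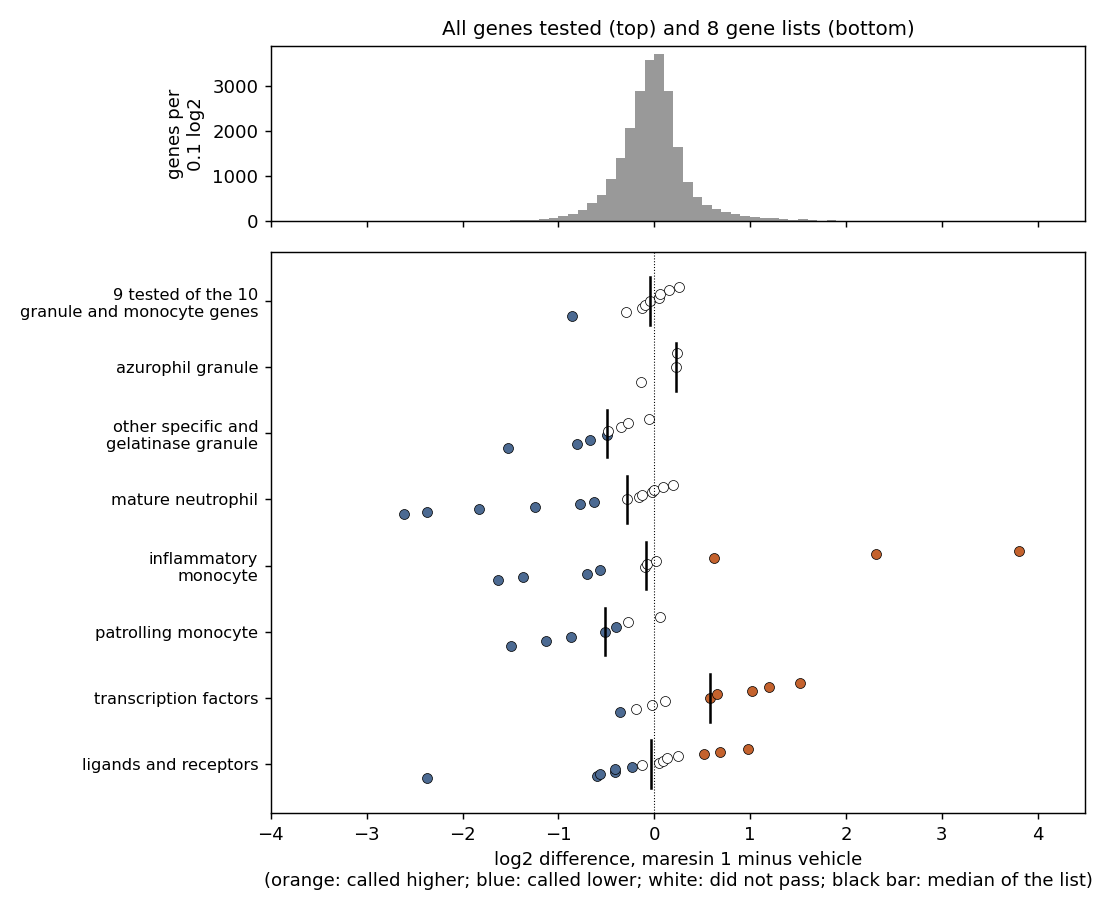
The upper panel gives the number of genes per 0.1 log2 units for all 24055 genes tested. The lower panel gives the log2 difference, maresin 1 minus vehicle, of each tested gene in 8 lists, coloured by its call, with the median as a bar. Of the 9 granule and monocyte genes 1 is called, at -0.86, while 6 of 13 mature neutrophil genes lie at -0.63 or below and 5 of 9 transcription factors at 0.58 or above. Over all genes tested, 12.8% were called lower and 11.2% higher, and the lists were chosen with earlier results of these data known.

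Of 18 genes of mature neutrophils, 13 were tested, of which 6 fell, 0 rose and 7 did not pass, with a median of -0.28. Over all genes tested, 12.8% were called lower. The list was chosen with earlier results of these data known, so its counts describe the listed genes and test nothing about neutrophils. The genes with the smallest p were Clec4d (-1.82 ± 0.06) and Clec4e (-1.24 ± 0.06), lectins for microbial glycolipids, and the formyl peptide receptors Fpr2 (-2.37 ± 0.10) and Fpr1 (-2.61 ± 0.12), all 4 also known in macrophages. The remaining calls were Hdc (-0.78 ± 0.08) and Stfa3 (-0.63 ± 0.06). The 6 calls held whichever array was left out. Cxcr2 and Cxcr1, the chemokine receptors that define circulating neutrophils, and Stfa2l1 were not well above background on any array. Retnlg, a resistin-like gene of neutrophils, had levels of -4.10 and -4.21 with vehicle and -4.43 and -4.13 with maresin 1 (adjusted p = 0.498). Over 6 measured neutrophil markers, including Mmp8, Elane, Mpo and Retnlg, 4 were well above background on each array and 1 fell, and their summed signal was 1.17 to 1.29 times the 75th percentile with vehicle and 0.938 to 1.01 times with maresin 1. The part of neutrophil number in the values of the granule genes was not tested.

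Monocyte genes outside the list moved in both directions. Of 10 inflammatory monocyte genes, all tested, 3 rose, 4 fell and 3 did not pass, with a median of -0.09. Chil3, a chitinase-like lectin, rose by 3.80 ± 0.11 (adjusted p = 0.0015), whereas Ifitm6 (-1.63 ± 0.08) and Ccr2 (-0.70 ± 0.06), the receptor that brings monocytes out of the marrow, fell. Of the 7 calls, 5 held whichever array was left out; that of F13a1 needed both vehicle arrays (highest adjusted p 0.0789 with 1 left out) and that of Fn1 both vehicle arrays and maresin 1 replicate 2 (highest 0.0754). Of 7 genes of patrolling monocytes, 5 fell, 0 rose and 2 did not pass, with a median of -0.51. Treml4, a receptor of patrolling monocytes and some macrophages, fell by 1.50 (SE 0.05), the transcription factor gene Pou2f2 by 0.87 (SE 0.06) and the fractalkine receptor gene Cx3cr1 by 1.13 (SE 0.11), while the calls of Spn (-0.51 ± 0.06), the CD43 gene, and Itgal were lost without at least 3 of the 4 arrays in turn (adjusted p up to 0.0678 and 0.137). Over 5 monocyte markers, all well above background on each array, the summed signal was 116 to 119 times the 75th percentile with vehicle and 124 to 136 times with maresin 1. Of these 5, 1 rose, Ccr2 and F13a1 fell, and 2 did not pass. The brightest, Ly6c1, had levels of 6.83 and 6.79 with vehicle and 6.82 and 6.65 with maresin 1. It did not pass and did not raise the sum.

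Genes for the ligands, receptors and signalling partners of the listed products also went both ways. Of 15, 14 were tested, of which 3 rose, 6 fell and 5 did not pass, with a median of -0.04. Downstream of cytokine receptors such as that of Csf3r, the feedback inhibitor gene Socs3 rose by 0.98 ± 0.06 and the kinase gene Jak2 by 0.68 ± 0.05, both whichever array was left out. Csf3, the ligand gene of Csf3r, had levels of -5.09 and -5.03 with vehicle and -4.47 and -4.61 with maresin 1. It rose by 0.52 ± 0.08 (adjusted p = 0.0183), a call that needed both vehicle arrays and maresin 1 replicate 1. Its vehicle levels lay near the lowest signal counted as well above background, -5.75 to -5.54. Over the 14 alternatives its difference lay between 0.23 and 0.62. Tlr4 (0.10 ± 0.09, adjusted p = 0.486) and Ager (0.05 ± 0.06, adjusted p = 0.554), receptors for the S100A8 and S100A9 proteins, did not pass. The mean of the probes of Ager in place of its brightest gave -0.29 (adjusted p = 0.0299), so its probes differed. Ly96 (-0.56 ± 0.12, adjusted p = 0.0365) and Cd14 (-0.23 ± 0.05, adjusted p = 0.0494), on the same list, were called lower. Both of these calls were lost without either vehicle array, among others. Slc22a17, a receptor gene for lipocalin 2, fell by 0.41 (SE 0.07, adjusted p = 0.0209), and P2rx7, an ATP receptor that cathelicidin can act through, by 0.41 (SE 0.06, adjusted p = 0.0182), both calls needing all 4 arrays (highest adjusted p 0.0957 and 0.0866). Fpr2, given above, is also a receptor for cathelicidin. Csf3, Tlr4, Ager and Slc22a17 were named after their values were seen.

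Markers of other cells that the Percoll layer could hold were present at various levels. Plasmacytoid dendritic cells, which express Ly6c2 and Plac8, had all 5 of their markers well above background on each array, with a summed signal of 162 to 167 times the 75th percentile with vehicle and 165 to 168 times with maresin 1. Of these, Klk1 rose by 1.49 ± 0.14 (adjusted p = 0.00717), and the other 4, with differences between -0.28 and 0.19, did not pass. The brightest, Bst2, had a difference of 0.07 ± 0.06 (adjusted p = 0.377). It weighs most in the sum, so the sum says little about the other markers. B cell markers (3 of 5 rose) had the brightest gene Cd79b at 0.74 ± 0.08 and a summed signal of 1.93 to 2.17 times with vehicle and 3.43 to 3.63 times with maresin 1. The other 2 did not pass. Pax5 was lower on both maresin 1 arrays (-0.42 ± 0.16, adjusted p = 0.137). Cd79a, well above background on 1 vehicle array, had overlapping groups (0.44 ± 0.31, adjusted p = 0.344). Pax5 and Cd79a were named after their values were seen. T and NK cell markers (2 of 5 fell) summed to 10.7 to 10.8 times with vehicle and 8.93 to 8.96 times with maresin 1, and their brightest gene Cd3d had a difference of -0.22 ± 0.06 (adjusted p = 0.0569). Hepatocyte markers (1 of 5 fell) summed to 19.0 to 20.4 times and 16.3 to 17.5 times, with Alb at -0.23 ± 0.09 (adjusted p = 0.125). Sinusoidal endothelial markers (2 of 4 tested rose) summed to 57.1 to 61.7 times and 70.5 to 70.6 times, with Stab2 rising by 0.47 ± 0.07 (adjusted p = 0.0185). The sum on vehicle replicate 1, 57.1, leaves out Kdr, which had no usable value there, so it cannot be compared directly with the other sums. Stellate cell markers (1 of 3 tested fell, with Des and Lrat not well above background on any array) summed to 3.83 to 3.92 times and 2.97 to 3 times, with Dcn falling by 0.37 (SE 0.06). The calls of Stab2 and Dcn were lost without either vehicle array, among others (adjusted p up to 0.0881 and 0.0890). The part of these cells in the values of Mcemp1 and the other listed genes was not tested.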

How the data were processed

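RNA of cultured cells was measured on 4 Agilent arrays of 1 colour. The submitters' processing notes and the file headers name the source of the scanner files: the deposited intensity values came from Agilent Feature Extraction 11.0.1.1, and its processed signal was used. The deposited value table holds log2 values of 29710 probes; its scale and filter are not stated, its sorted columns differed by at most 0.00217, each median was 9.07, and it was used as an alternative.

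Log2 processed signals were centred on the 75th percentile of all spots that are not controls, array by array. Outlier-marked spots were left out, and probes with none left on an array were dropped. Probes were named by unversioned RefSeq accession (GRCm38.p6 gene table, names and neighbours only; 58.3% of 56605 matched), and a gene was taken at its brightest kept probe. Groups were compared with limma 3.58.1 in R 4.3.3 (lmFit and eBayes, two-sided, Benjamini-Hochberg over 24055 genes, threshold 0.05), a fit checked on simulated data, without a replicate term. Named genes were the 10 listed, up to 4 per context list with the smallest p, and the brightest gene of each cell type list, besides those said to be named after their values were seen and list members named for their calls, for lying at background or for lacking a value. The members and lists were chosen with earlier results of these data known. Protein sequences were not used here, and 1 gene that the rule names is not reported here.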

Additional observations from a re-analysis of the deposited data

How the results depend on the processing

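Mcemp1 kept its direction and call under all 14 alternatives, among them the replicate block (-0.86, adjusted p = 0.0176). The replicate numbers share nothing in the labels and same-numbered deviations correlated at -0.0292 across genes; with the replicate block 1766 genes were called higher and 1926 lower, and no call among the 10 genes changed. Of 126 values of the 9 tested genes under alternatives, 118 kept direction where called and side of the threshold and 8 passed newly. With normexp background correction (median signal) followed by quantile normalization, 3 listed genes were called lower and 1 higher. With no scaling, 2 were called lower and 0 higher, and with a variance trend 2 lower and 2 higher. The median of the 9 tested genes was -0.16 with no scaling, which moved the median of all genes to -0.14. It lay between -0.10 and 0 without 1 array. Genes called higher and lower over the whole array were 2699 and 3069, against 1447 higher with no scaling (3940 lower), 1087 and 972 with no filter on dim probes, 4525 and 4670 with a variance trend, and 1011 to 1336 and 916 to 1491 without 1 array; fewer samples or more genes tested lower these counts by construction, and other causes were not tested. A lone array was assumed to vary like the other group. Taking the mean of a gene's probes reversed Ager (0.05 to -0.29, adjusted p = 0.0299), whose probes differ. For dim genes such as Ngp, Ltf and Csf3, signal near background limits what can be seen.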
